A study of Mus musculus with 13 samples.

Results

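The 10 antioxidant and glutathione genes described here are Sod1, Sod2, Prdx1, Txn1, Txnrd1, Gsr, Srxn1, Slc7a11, Hmox1 and Gclm, chosen by name from the 22598 features of the deposited matrix, and all 10 were found in it. The cells were sorted from mouse spinal cord in experimental autoimmune encephalomyelitis (EAE), a model in which an immune attack strips myelin in the central nervous system, and were sequenced one by one with 10x Genomics chemistry. There were 3 libraries of infiltrating myeloid cells from chronic EAE, 2 of infiltrating cells from the peak of EAE, 3 of resident myeloid cells from chronic EAE, 2 of resident cells from the peak, and 3 of resident cells from healthy controls. The deposited cell table lists control libraries a and b with the peak and c with chronic EAE; all 3 served as the control at both stages, so chronic microglia had 1 control library of their own stage. Every mouse, controls included, had the genotype Cx3cr1YFPCreERT2:R26tdTomato, in which the Cx3cr1 locus carries a fluorescent reporter and a tamoxifen-dependent Cre that turns on tdTomato. Because monocytes also use the Cx3cr1 locus, the separation of resident from infiltrating cells by this mark rests on blood cells having been replaced after the Cre was active. No infiltrating cells came from controls, and age and sex are not given in the sources used here. The labels call the libraries of a group biological replicates, and letters a, b and c below only name libraries within a group.

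Cells remove superoxide and peroxides through linked enzymes. Superoxide dismutases turn superoxide into hydrogen peroxide; peroxiredoxins reduce the peroxide with electrons from thioredoxin, and glutathione peroxidases do so with glutathione. Thioredoxin reductase, glutathione reductase, sulfiredoxin, cystine import and glutathione synthesis keep these cycles supplied. Many of the genes are known targets of the transcription factor NRF2, which binds DNA with a small MAF protein at the antioxidant response element. Phagocytes such as microglia and macrophages make superoxide themselves, with the NADPH oxidase of their membranes.

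The core letters of that element, TGACNNNGC, were searched on both strands of RefSeq promoter windows (build GRCm38.p6) that run from 250 bases before to 50 bases after a gene's start. Of the members, 8 had a window, and 5 of these 8 held the letters, against 13.99% of 27025 genes with a window. In all 5 the letters read on the strand opposite to the gene, so the gene strand below, which is the plus strand for each, shows GCNNNGTCA in capitals. The stretches are shown because they hold the letters of the element named above. The match began at position 28 in Srxn1 (chr2:152105542-152105570), at -134 in Gclm (chr3:122245398-122245456), at -133 in Prdx1 (chr4:116685441-116685499), at -92 in 1 of the 3 windows of Txnrd1 (chr10:82859089-82859147) and at -56 in Sod1 (chr16:90220681-90220739), where negative positions lie before the start.
Srxn1: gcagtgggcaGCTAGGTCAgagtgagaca
Gclm: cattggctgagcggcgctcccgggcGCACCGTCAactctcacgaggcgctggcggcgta
Prdx1: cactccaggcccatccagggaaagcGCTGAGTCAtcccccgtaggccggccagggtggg
Txnrd1: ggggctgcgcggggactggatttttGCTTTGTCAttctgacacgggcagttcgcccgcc
Sod1: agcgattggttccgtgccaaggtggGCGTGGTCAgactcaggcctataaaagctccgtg
The letters were not present in the windows of Sod2, Txn1 and Slc7a11. A match is a string of letters and not a measured binding site; no binding data were used here.

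The matrix held 22148 cells and 116091839 unique molecular identifiers (UMIs), each standing for 1 captured RNA molecule. Cell types were the authors' deposited ones. For the tests, UMIs were summed per library over 18850 cells: annotated microglia in resident libraries, and annotated monocytes and macrophages in infiltrating libraries. These sums held 2262491 to 20256465 UMIs. The library chronic infiltrating b stood apart, since 1915 of its 2359 cells were annotated as microglia and its sum rests on 342 cells; macrophages made up 69.0% to 77.5% of the chronic infiltrating sums, against 40.1% to 50.4% of the peak infiltrating sums. Of the markers, 9 of 9 for microglia were measured, summing to 718 to 2020 CPM in chronic and 619 to 654 CPM in peak infiltrating sums, and to 22673 to 27453 CPM in control, 7745 to 8503 CPM in peak and 12909 to 13645 CPM in chronic microglia. For monocytes 8 of 8 markers were measured, summing to 1005 to 4081 CPM in chronic and 5655 to 10481 CPM in peak infiltrating sums, and to 2.52 to 7.20 CPM in control, 13.8 to 39.0 CPM in peak and 2.34 to 7.55 CPM in chronic microglia. The deposited cell table gives each library a batch label headed SLX, with 4 values, here called pools A to D. It also holds a batch date, which was not used. No pool held both disease stages, so pool and stage cannot be told apart in a direct comparison of chronic with peak. A fit with pool as a term links the stages only through the controls. Between libraries, 55 barcode sequences were shared, each by 2 libraries.

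A gene is called higher or lower below where edgeR's quasi-likelihood test gave an adjusted p under 0.05 over the 11479 genes tested. The members were chosen with earlier results of these data known, so their counts and medians beside all genes are a description. In peak over control microglia 7 of 10 members were higher (Sod1, Sod2, Prdx1, Txn1, Txnrd1, Srxn1 and Hmox1) and 0 lower, beside 12.3% of all genes higher, 9.67% lower and 22.0% in either direction; the largest was the rise of thioredoxin, Txn1, at 10.7-fold. In chronic over control microglia 5 were higher (Sod2, Prdx1, Txn1, Srxn1 and Hmox1) and 0 lower, beside 11.3% of all genes higher, 6.46% lower and 17.7% in either direction; the largest was that of the peroxiredoxin Prdx1, at 5.41-fold. Chronic microglia were lower than peak microglia in 2 members, Sod1 and Txn1, beside 4.75% of all genes higher, 5.04% lower and 9.79% in either direction. Infiltrating monocytes and macrophages exceeded microglia at the peak in 8 of 10 members, with Sod1 lower and Prdx1 not called, beside 13.9% of all genes higher, 16.0% lower and 29.9% in either direction. In chronic EAE they exceeded microglia in 9 of 10, all but Sod1, beside 12.4% of all genes higher, 13.7% lower and 26.1% in either direction.

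The median log2 fold change of the members was 1.25 for peak over control microglia, against 0.00217 over all genes, and 1.27 for chronic over control microglia, against -0.01 over all genes. For infiltrating cells over microglia it was 1.58 at the peak, against -0.05 over all genes, and 1.21 in chronic EAE, against -0.05 over all genes. The balance of all calls depended on scaling: of the genes called, 56.0% were higher in peak over control microglia with TMM and 29.9% with library size alone, and 63.5% and 18.1% in chronic over control microglia. For infiltrating cells over microglia the shares were 46.6% and 29.8% at the peak, and 47.6% and 29.2% in chronic EAE. With library size alone, 4 members were called in peak over control microglia, beside 26.6% of all genes in either direction, and 4 in chronic over control microglia, beside 36.5%. Between the cell groups 8 were called at the peak, beside 30.9% of all genes, and 7 in chronic EAE, beside 29.1%.

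**Figure D1:**
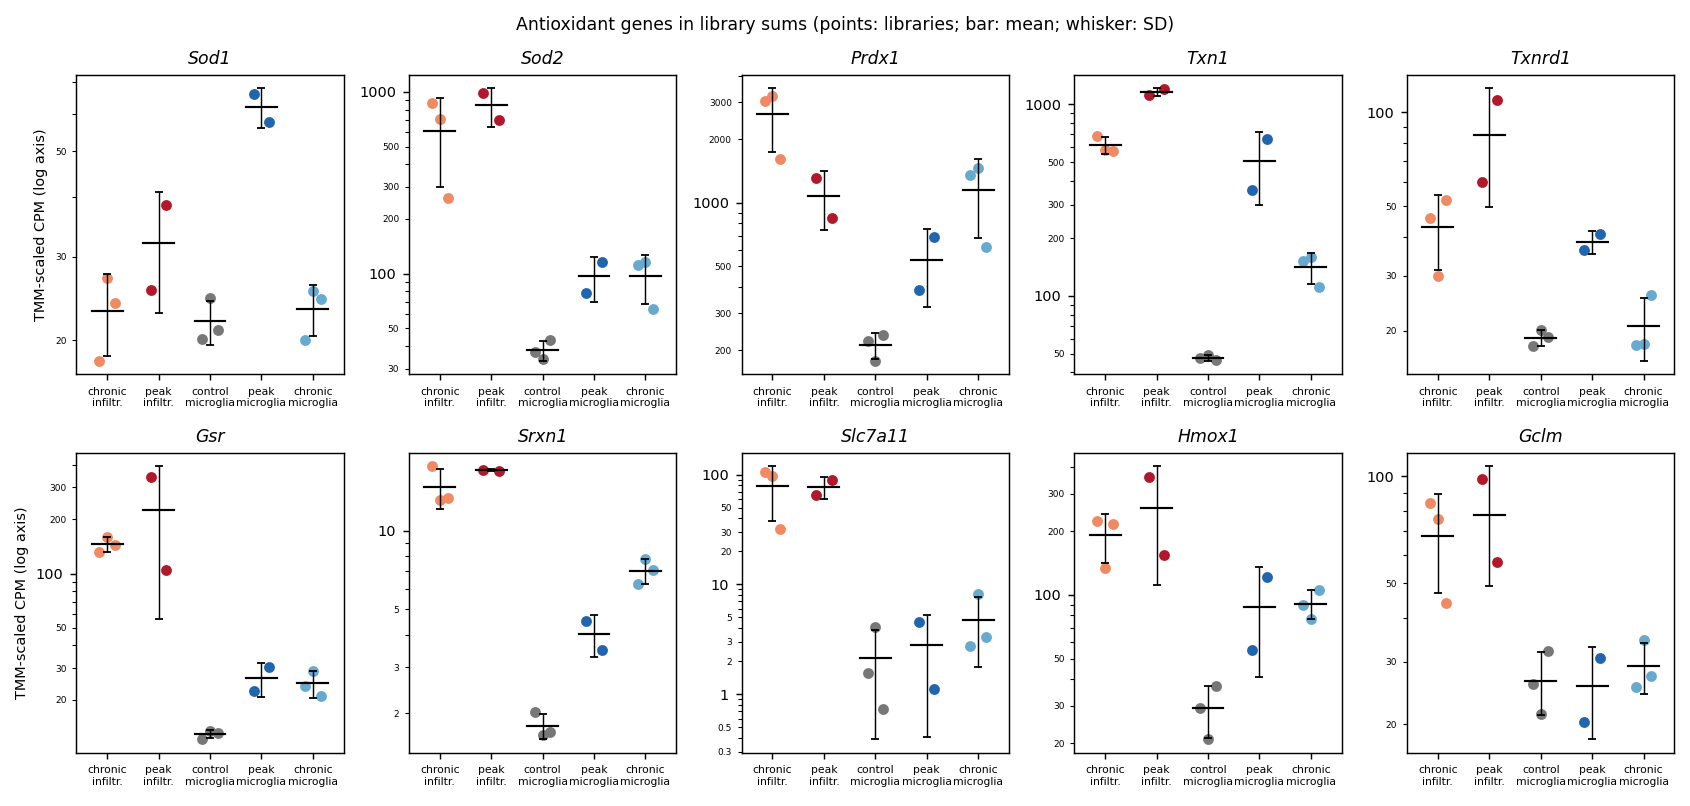
CPM of each gene on a log axis, scaled by TMM, in the 13 library sums; points are libraries, the bar is the mean and the whisker the SD. Sod1 stands highest in the 2 peak microglia libraries. Sod2, Gsr, Srxn1, Slc7a11, Hmox1 and Gclm lie higher in each infiltrating library than in each microglia library.

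Txn1 (chr4:57943373-57956411 on GRCm38, minus strand), which encodes the cytosolic thioredoxin, showed the largest fold of the 10 genes in peak over control microglia. Values below are CPM of the library sums scaled by TMM. In infiltrating cells Txn1 had 684, 575 and 573 CPM in chronic EAE, against 1116 and 1197 CPM at the peak. Its microglial values were 47.2, 49.3 and 46.2 CPM in controls, 359 and 658 CPM at the peak and 152, 159 and 111 CPM in chronic EAE. The 3 microglial groups did not overlap, and the higher peak microglia library lay among the chronic infiltrating libraries. Txn1 rose 10.7-fold in peak over control microglia (log2 fold change 3.42 ± 0.29, adjusted p = 6.07e-06, n = 2 and 3 libraries, from the edgeR fit across all genes) and 2.96-fold in chronic over control microglia (1.56 ± 0.26, adjusted p = 0.00103). Chronic microglia were lower than peak microglia (-1.85 ± 0.28, adjusted p = 0.004). Infiltrating cells exceeded microglia at the peak (1.19 ± 0.31, adjusted p = 0.0107) and in chronic EAE (2.12 ± 0.26, adjusted p = 4.69e-05). With 1 library left out at a time, both calls over control microglia held each time; the call of chronic over peak microglia was lost without peak library b (-1.35, adjusted p = 0.0714), and that of infiltrating cells over microglia at the peak without microglia library a (0.80, adjusted p = 0.139).

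Txnrd1 (chr10:82833951-82897712, plus strand), the cytosolic thioredoxin reductase that recharges thioredoxin with NADPH, was also highest at the peak among microglia. Infiltrating cells had 46.0, 30.0 and 52.6 CPM in chronic EAE, against 60.1 and 109 CPM at the peak. Microglia had 17.9, 20.1 and 19.0 CPM in controls, 36.2 and 40.8 CPM at the peak and 17.9, 18.1 and 26.1 CPM in chronic EAE, so that peak microglia lay above both other microglial groups, which overlapped. Txnrd1 rose in peak over control microglia (log2 fold change 1.02 ± 0.29, adjusted p = 0.0219). edgeR lost this call with library size only (0.68, adjusted p = 0.16) and with pool as a term (0.75, adjusted p = 0.0631). It was lost with all cells of each library as well (1.03, adjusted p = 0.0513). Chronic over control microglia gave 0.14 (95% interval -0.47 to 0.74) and was not called. Chronic over peak microglia, at 0.542-fold, was not called either. In infiltrating cells over microglia Txnrd1 was higher at the peak (1.13 ± 0.32, adjusted p = 0.0165) and in chronic EAE (1.03 ± 0.27, adjusted p = 0.0113). The call over control microglia was lost with any 1 of its 5 libraries left out, at a log2 fold change of 0.93 to 1.10. The peak difference between the cell groups was lost without microglia library a (1.04, adjusted p = 0.132), microglia library b (1.22, adjusted p = 0.0573) or infiltrating library b (0.65, adjusted p = 0.129).

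Prdx1 (chr4:116685544-116700822, plus strand), a peroxiredoxin that reduces hydrogen peroxide with electrons from thioredoxin, had 3032, 3215 and 1622 CPM in chronic infiltrating cells, against 1311 and 844 CPM in peak infiltrating cells. Its microglial values were 220.5, 179 and 237 CPM in controls, 386 and 691 CPM at the peak and 1355, 1468 and 617 CPM in chronic EAE. By group mean the order of the stages thus differed from that of Txn1. Chronic libraries a and b, both of pool D, which held no peak or control library, were the highest in microglia. Chronic library c, of pool B, lay within the range of the peak libraries. Prdx1 rose in chronic over control microglia (log2 fold change 2.43 ± 0.39, adjusted p = 0.000817) and in peak over control microglia (1.34 ± 0.41, adjusted p = 0.0291). The difference of chronic over peak microglia was not called (1.09 ± 0.42, adjusted p = 0.107). With pool as a term in the edgeR fit it was -0.20 (adjusted p = 0.944). Infiltrating cells were higher than microglia in chronic EAE (1.19 ± 0.37, adjusted p = 0.029), while the peak difference of 1.00 (95% interval -0.05 to 2.05) was not called. Peak over control microglia was called in 1 of 5 cases with a library left out, at 0.86 to 1.70 and lowest without peak library b, whereas chronic over control microglia was called in all 6. The chronic difference between the cell groups was lost without microglia library c (0.88, adjusted p = 0.11), infiltrating library a (1.08, adjusted p = 0.0892) or infiltrating library b (1.02, adjusted p = 0.0935).

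Srxn1 (chr2:152105516-152111376, plus strand) encodes sulfiredoxin, which repairs peroxiredoxins inactivated by excess peroxide. It was a low gene, with 898 UMIs over all cells. Chronic infiltrating cells had 17.6, 13.1 and 13.3 CPM, against 17.1 and 17.0 CPM in peak infiltrating cells. Microglia had 2.02, 1.66 and 1.70 CPM in controls, 4.53 and 3.49 CPM at the peak and 6.25, 7.80 and 7.06 CPM in chronic EAE, and the 3 groups lay in that ascending order with no overlap. Srxn1 rose in chronic over control microglia (log2 fold change 1.96 ± 0.25, adjusted p = 0.000142) and in peak over control microglia (1.14 ± 0.29, adjusted p = 0.0133); chronic over peak gave 0.82 ± 0.28, adjusted p = 0.0707, which was not called. Every infiltrating library exceeded every microglial library, and the difference was called at the peak (2.09 ± 0.29, adjusted p = 0.000134) and in chronic EAE (1.07 ± 0.23, adjusted p = 0.00354). Of these calls, that of peak over control microglia was lost without peak library a (0.95, adjusted p = 0.125) or control library c (1.08, adjusted p = 0.0566), and the others held with each library left out.

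The superoxide dismutases differed from each other. Sod1 (chr16:90220754-90226329, plus strand), the copper and zinc enzyme of the cytosol, had 18.1, 27.0 and 23.9 CPM in chronic infiltrating cells, against 25.5 and 38.5 CPM in peak infiltrating cells. In microglia it had 20.1, 24.5 and 21.03 CPM in controls, 66.3 and 57.8 CPM at the peak and 20.0, 25.4 and 24.4 CPM in chronic EAE, and both peak microglia libraries lay above all 11 other libraries. Sod1 was higher in peak than in control microglia (log2 fold change 1.50 ± 0.24, adjusted p = 0.000668), and lower in chronic than in peak microglia (-1.41 ± 0.24, adjusted p = 0.00586). At the peak it was also lower in infiltrating cells than in microglia (-0.97 ± 0.26, adjusted p = 0.0136). Chronic over control microglia (0.09, 95% interval -0.41 to 0.59) and chronic infiltrating cells over chronic microglia (-0.03, 95% interval -0.55 to 0.49) were not called. The call over control microglia held with each of 5 libraries left out. That of chronic over peak microglia was lost without peak library a (-1.30, adjusted p = 0.073) or b (-1.51, adjusted p = 0.0527), and that of infiltrating cells against microglia at the peak without microglia library a (-0.88, adjusted p = 0.091) or infiltrating library a (-0.69, adjusted p = 0.146).

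Sod2 (chr17:13006846-13040063, plus strand), the manganese enzyme of the mitochondrial matrix and a known target of NF-κB, had 865, 707 and 261 CPM in chronic infiltrating cells, against 989.6 and 703 CPM in peak infiltrating cells. Microglia had 37.0, 33.7 and 43.0 CPM in controls, 78.0 and 116 CPM at the peak and 112, 116 and 64.0 CPM in chronic EAE. All infiltrating libraries lay above all microglial libraries, and all microglial libraries from EAE lay above the controls. Sod2 rose in peak (log2 fold change 1.35 ± 0.41, adjusted p = 0.0314) and in chronic microglia (1.36 ± 0.38, adjusted p = 0.0257) over controls, and chronic over peak microglia gave 0.00 (95% interval -0.96 to 0.97). Infiltrating cells exceeded microglia 8.73-fold at the peak (3.13 ± 0.49, adjusted p = 0.000372) and 6.29-fold in chronic EAE (2.65 ± 0.40, adjusted p = 0.000229), and these calls held with each library left out. The calls over control microglia did not: that of peak microglia was lost with any 1 of 5 libraries left out (1.04 to 1.60), and that of chronic microglia with 5 of 6, all but chronic library c (1.21 to 1.57).

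Hmox1 (chr8:75093621-75100589, plus strand), the inducible haem oxygenase that breaks haem down to biliverdin, iron and carbon monoxide, had 224, 134 and 215 CPM in chronic infiltrating cells, against 360.3 and 154 CPM in peak infiltrating cells. In microglia it had 29.5, 20.95 and 37.2 CPM in controls, 54.9 and 121 CPM at the peak and 89.8, 77.2 and 106 CPM in chronic EAE. Every microglial library from EAE exceeded the controls, and the stages of EAE overlapped. Hmox1 rose in peak (log2 fold change 1.59 ± 0.40, adjusted p = 0.0114) and in chronic microglia (1.63 ± 0.37, adjusted p = 0.00795) over controls. Infiltrating cells were higher than microglia at the peak (1.55 ± 0.45, adjusted p = 0.018) and in chronic EAE (1.07 ± 0.36, adjusted p = 0.042). With pool as a term the call at the peak was lost (0.99, adjusted p = 0.0746). Over controls, the call in chronic microglia held with each library left out, and that in peak microglia was lost without peak library b (0.91, adjusted p = 0.236). Between the cell groups at the peak, Hmox1 was lost without infiltrating library a (0.80, adjusted p = 0.283) or microglia library a (1.06, adjusted p = 0.196), and in chronic EAE with 5 of 6 libraries left out, all but infiltrating library b (0.94 to 1.27).

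The 3 glutathione genes separated infiltrating cells from microglia, as did Sod2, Srxn1 and Hmox1. Unlike those, the glutathione genes were not called between stages of microglia in the edgeR fit above. Slc7a11 (chr3:49892526-50443614, minus strand), the cystine and glutamate exchanger that brings in cystine for glutathione, had 105, 97.6 and 31.9 CPM in chronic infiltrating cells, against 65.3 and 89.4 CPM in peak infiltrating cells. Microglia had 1.57, 4.09 and 0.741 CPM in controls, 4.53 and 1.11 CPM at the peak and 2.72, 8.14 and 3.34 CPM in chronic EAE, from 7 to 63 UMIs a library. The microglial groups overlapped, and the lowest infiltrating library lay above the highest microglial one. Slc7a11 was 28.4-fold higher in infiltrating cells than in microglia at the peak (log2 fold change 4.83 ± 0.80, adjusted p = 0.000521) and 17.2-fold higher in chronic EAE (4.11 ± 0.60, adjusted p = 0.000205). These were the largest folds of any member between the cell groups at either stage, and they were called with each library left out. At the peak the log2 fold change was 6.08 without microglia library a and 4.08 without library b. In microglia over controls its interval was wide, -1.45 to 2.30 at the peak and -0.32 to 2.69 in chronic EAE. With all cells of each library, edgeR called it in chronic over control microglia (2.36, adjusted p = 0.0474).

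Gsr (chr8:33652523-33698163, plus strand), the glutathione reductase that returns oxidised glutathione to its reduced form, had 132, 159 and 144 CPM in chronic infiltrating cells, against 343 and 105 CPM in peak infiltrating cells. Its microglial values were 12.1, 13.4 and 13.1 CPM in controls, 22.4 and 30.3 CPM at the peak and 23.9, 29.1 and 21.02 CPM in chronic EAE. The EAE libraries of microglia did not overlap with the controls, but neither difference passed the edgeR test, with a log2 fold change of 1.04 ± 0.37, adjusted p = 0.0587 at the peak and of 0.93 ± 0.33, adjusted p = 0.0684 in chronic EAE. DESeq2 called Gsr at the peak (1.02, adjusted p = 0.0426) and in chronic EAE (0.94, adjusted p = 0.0411), and so did edgeR with no filter on low counts (1.00, adjusted p = 0.0367, and 0.93, adjusted p = 0.0361). The shares of all genes called were 24.0% and 21.2% by DESeq2, and 16.0% and 14.3% with no filter. With pool as a term edgeR called it at the peak (1.45, adjusted p = 0.0191) and not in chronic EAE (0.79, adjusted p = 0.503). Infiltrating cells exceeded microglia at the peak (3.09 ± 0.43, adjusted p = 0.000122) and in chronic EAE (2.56 ± 0.34, adjusted p = 9.54e-05), with each library left out as well. At the peak its log2 fold change was 1.99 without infiltrating library a and 3.71 without library b.

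Gclm (chr3:122245557-122270732, plus strand), the modifier subunit of the ligase that makes the first step of glutathione synthesis, had 84.2, 75.8 and 44.1 CPM in chronic infiltrating cells, against 98.2 and 57.4 CPM in peak infiltrating cells. Microglia had 26.1, 21.5 and 32.1 CPM in controls, 20.4 and 30.8 CPM at the peak and 25.5, 34.5 and 27.4 CPM in chronic EAE, and the 3 groups overlapped. The log2 fold change over control microglia was -0.05 at the peak (95% interval -0.79 to 0.69) and 0.13 in chronic EAE (95% interval -0.52 to 0.78). Infiltrating cells were higher than microglia at the peak (1.61 ± 0.35, adjusted p = 0.00383) and in chronic EAE (1.24 ± 0.29, adjusted p = 0.00587). The peak call was lost without infiltrating library a (1.16, adjusted p = 0.0607) or microglia library a (1.32, adjusted p = 0.0638), and the chronic call held with each library left out. In the GENCODE M21 annotation Gclm was the only member that shared exon bases with another gene, 296 bases with Gm17494 on the opposite strand and 244 with Gm6061 on the same strand; neither of these is a feature of the matrix.

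**Figure D2:**
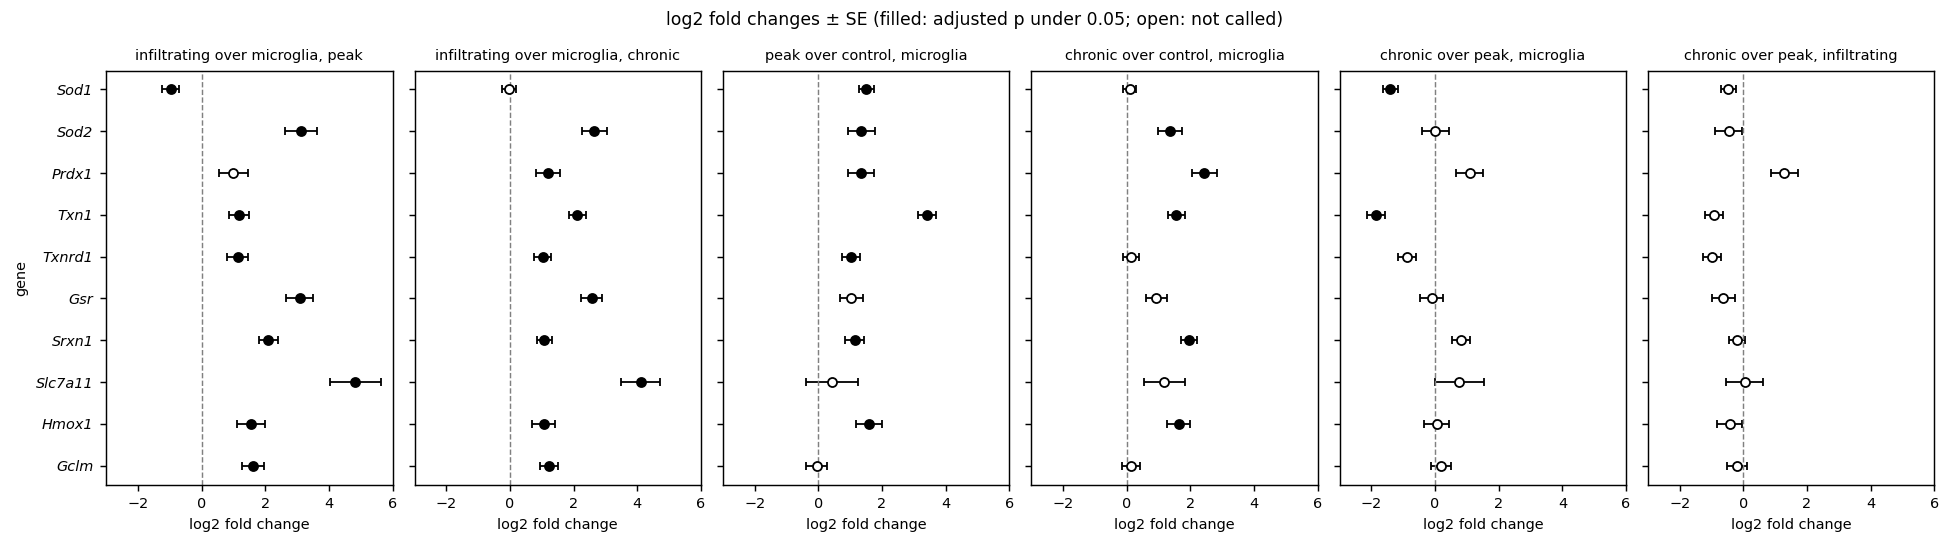
Log2 fold changes with their SE from edgeR for the 10 genes in 6 comparisons; filled points have an adjusted p under 0.05. Sod1 and Txn1 fall below 0 in chronic over peak microglia, while no point is filled in chronic over peak infiltrating cells.

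Between chronic and peak infiltrating cells, edgeR called 0 of 10 members, beside 0.793% of all genes in either direction; 3 members had an unadjusted p under 0.05, beside 16.8% of all genes, and DESeq2 called 2, Prdx1 and Txn1, beside 3.54% of all genes. Prdx1 gave 1.28 ± 0.43, adjusted p = 0.17, Txn1 -0.92 ± 0.28, adjusted p = 0.132 and Txnrd1 -0.98 ± 0.29, adjusted p = 0.128 on the log2 scale. For these 3 genes the chronic and peak libraries did not overlap, as for 23.4% of all genes. The change of chronic over peak was then compared between infiltrating cells and microglia. edgeR called 0 of 10 members for this difference of differences, beside 0.0436% of all genes; 3 had an unadjusted p under 0.05, beside 7.17% of all genes, and DESeq2 called 0, beside 0.366%. The 3 were Sod1 (0.94 ± 0.35, adjusted p = 0.548), Txn1 (0.93 ± 0.40, adjusted p = 0.649) and Srxn1 (-1.02 ± 0.37, adjusted p = 0.538).

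The pools gave a second reading of these differences, from libraries already used in the tests above. Ratios within pools were computed for the members alone, so no share of all genes stands beside them. Within pool C, which held control library b, listed with the peak, and both peak microglia libraries, 9 of 10 members were higher in peak microglia, with a median log2 ratio of 1.31; Txn1 was at 3.37, Hmox1 at 2.07, Prdx1 at 1.59, Sod2 at 1.52, Sod1 at 1.34, Srxn1 at 1.27 and Txnrd1 at 0.94. Within pool B, which held 1 chronic library and control library c, listed with chronic EAE, 9 of 10 were higher in chronic microglia, with a median of 0.97; Srxn1 was at 2.05, Hmox1 at 1.50, Prdx1 at 1.38, Txn1 at 1.27 and Sod2 at 0.58. With pool as a term in the fit, 7 members were called in peak over control microglia, with Gsr in place of Txnrd1, beside 22.4% of all genes in either direction. In chronic over control microglia 2 were called, Prdx1 and Srxn1, beside 4.14% of all genes, against 17.7% without the term. Chronic over peak microglia then had 1 of 11479 genes called, 0.00871%, and none of the members, with Sod1 at -1.04 and Txn1 at -1.97.

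Other measures moved with the stage of microglia. The median number of UMIs per microglial cell was 3017 to 4476 in controls, 8447 to 8521 at the peak and 2466 to 3544 in chronic EAE. The median mitochondrial percent of a cell was 1.08 to 1.46 in controls, 2.27 to 2.63 at the peak and 0.966 to 1.47 in chronic EAE; Sod1, Txn1 and Txnrd1 were likewise highest at the peak. The 5 markers of infiltrating macrophages summed to 10.9 to 21.6 CPM in controls, 106 to 159 CPM at the peak and 169 to 378 CPM in chronic microglia. The 10 genes induced by tissue dissociation summed to 707 to 1579 CPM in controls, 970.0 to 1839 CPM at the peak and 626 to 687 CPM in chronic microglia. The part of these measures in the results was not tested.

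Between infiltrating cells and microglia, the comparison within pools again used the tested libraries and the members alone. It gave the same direction for 9 of 10 members in pool C at the peak and in pools B and D in chronic EAE. Sod1 was the member at or below 0, with a log2 ratio of -0.69 in pool C, -0.03 in pool B and -0.01 in pool D. When annotated macrophages alone stood for the infiltrating libraries, 9 members were called at either stage, beside 26.4% of all genes at the peak and 23.3% in chronic EAE. With annotated monocytes alone, 7 were called at the peak, beside 32.5% of all genes, and 4 in chronic EAE, which were Sod2, Txn1, Gsr and Slc7a11, beside 25.4%. With pool as a term, 8 were called at the peak, Hmox1 being lost, beside 28.4% of all genes, and 9 in chronic EAE, beside 37.4%. The median number of UMIs per cell was 6552 to 9730 in chronic and 11075 to 11414 in peak infiltrating cells, and the part of this depth was not tested.

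A wider list of 68 genes of the same pathways was read beside the members, of which 61 were tested. This list too was chosen with earlier results of these data known, so its shares are a description. In peak over control microglia 12 were higher (19.7%, against 12.3% of all genes) and 4 lower (6.56%, against 9.67%). The higher genes with the smallest p were Gpx3, a secreted glutathione peroxidase (log2 fold change 5.85 ± 0.77, adjusted p = 0.000176; 75 and 86 UMIs in peak and 7, 0 and 0 UMIs in control libraries), the small MAF gene Maff (3.04 ± 0.49, adjusted p = 0.000807), Pgd of the pentose phosphate path (1.37 ± 0.24, adjusted p = 0.00134) and the methionine sulfoxide reductase Msrb1 (1.97 ± 0.37, adjusted p = 0.00199). The 4 lower genes were Ggt5, a gamma-glutamyl transferase (-1.73 ± 0.32, adjusted p = 0.00191), Idh2, the mitochondrial NADP isocitrate dehydrogenase (-1.45 ± 0.31, adjusted p = 0.0042), the glutathione transferase Gstt2 (-1.22 ± 0.28, adjusted p = 0.00639) and Gclc, the catalytic partner of Gclm (-0.68 ± 0.20, adjusted p = 0.0277). Gclc had 24.1 ± 3.13 CPM in peak and 38.6 ± 3.64 CPM in control microglia (SD, n = 2 and 3).

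In chronic over control microglia 19 of the 61 were higher (31.1%, against 11.3% of all genes) and 3 lower (4.92%, against 6.46%). Gpx3 (5.91 ± 0.73, adjusted p = 0.00012), Maff (3.05 ± 0.45, adjusted p = 0.000449), the glutathione transferase Gsto1 (2.29 ± 0.38, adjusted p = 0.00103) and the microsomal transferase Mgst1 (4.41 ± 0.75, adjusted p = 0.00126) were the higher genes with the smallest p on the log2 scale. Mgst1 had 5, 3 and 7 UMIs in control and 46, 124 and 100 UMIs in chronic libraries. Ggt5 (-1.89 ± 0.27, adjusted p = 0.000387), Gclc (-0.61 ± 0.18, adjusted p = 0.0284) and Txnip, which binds and inhibits thioredoxin (-1.47 ± 0.48, adjusted p = 0.0494), were lower. Txnip had 122 ± 84.0 CPM in chronic and 339 ± 32.6 CPM in control microglia (SD, n = 3 each), where Txn1 was higher. Chronic over peak microglia had 3 higher and 3 lower, 4.92% each way, near the 4.75% and 5.04% of all genes. The higher ones were Gstt2 (1.45 ± 0.28, adjusted p = 0.0104), Gstp1 (2.01 ± 0.57, adjusted p = 0.0415) and Idh1 (1.07 ± 0.32, adjusted p = 0.0497), and the lower ones the NADPH-producing G6pdx (-1.08 ± 0.26, adjusted p = 0.0268) and Pgd (-0.84 ± 0.24, adjusted p = 0.042) and the small MAF gene Mafg (-0.91 ± 0.23, adjusted p = 0.0307).

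Infiltrating cells over microglia had 21 of the 61 higher (34.4%, against 13.9% of all genes) and 3 lower (4.92%, against 16.0%) at the peak. In chronic EAE 25 were higher (41.0%, against 12.4%) and 3 lower (4.92%, against 13.7%). The 4 higher genes with the smallest p were shared by both stages: Mgst1 (7.11 ± 0.86, adjusted p = 4.33e-05 at the peak, 5.50 ± 0.64, adjusted p = 2.95e-05 in chronic EAE), Msrb1 (3.83 ± 0.44, adjusted p = 2.97e-05 and 3.32 ± 0.35, adjusted p = 1.41e-05), Gstm1 (3.47 ± 0.48, adjusted p = 0.000117 and 3.65 ± 0.36, adjusted p = 6.53e-06) and the cytosolic Idh1 (2.17 ± 0.35, adjusted p = 0.00042 and 1.81 ± 0.27, adjusted p = 0.000257). Ggt5 was lower at both stages (-1.91 ± 0.38, adjusted p = 0.00201 and -2.54 ± 0.40, adjusted p = 0.000334), and so was Gstm5 (-1.75 ± 0.39, adjusted p = 0.00443 and -1.17 ± 0.32, adjusted p = 0.015). Gclc was lower in chronic EAE (-0.67 ± 0.19, adjusted p = 0.0186), with 15.9 ± 1.23 CPM in infiltrating cells and 25.2 ± 2.24 CPM in microglia (SD, n = 3 each), while its partner Gclm was higher. Gpx7 was lower at the peak (-3.09 ± 0.89, adjusted p = 0.0178), near the floor. It had 3 and 0 UMIs in infiltrating and 7 and 8 UMIs in microglia libraries. In chronic over peak infiltrating cells edgeR called 0 of the 61; 13 had an unadjusted p under 0.05, and DESeq2 called 2.

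**Figure D3:**
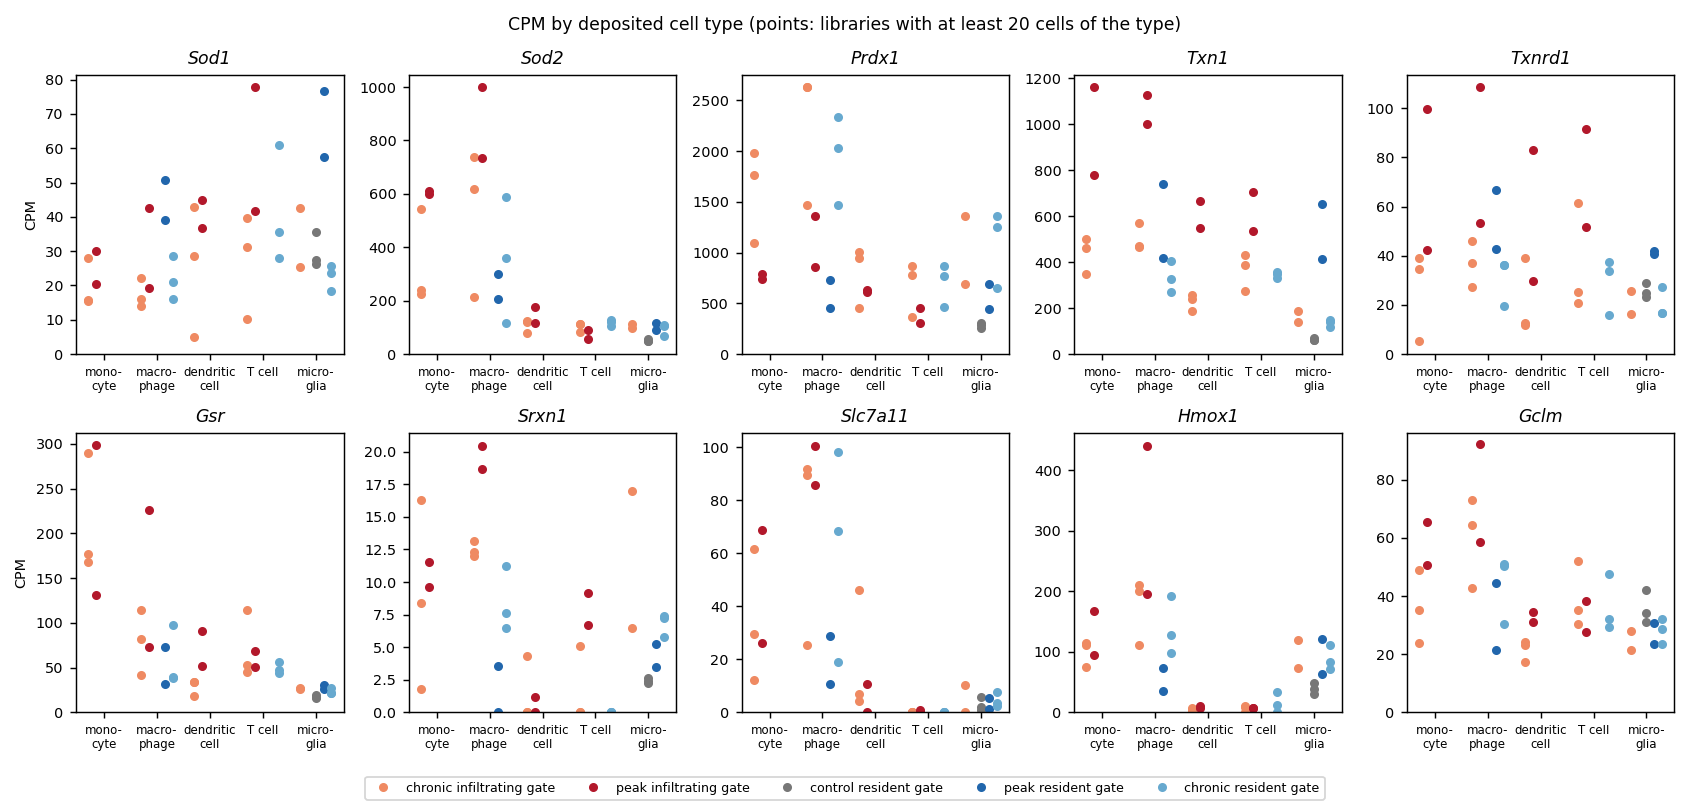
CPM of the 10 genes by the authors' cell type, scaled to library size alone; each point is a library with at least 20 cells of the type. Slc7a11 lies at or near 0 in T cells and low in microglia, and Hmox1 lies low in dendritic cells and T cells.

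By deposited cell type the members had different orders. Values in this paragraph are CPM scaled to library size alone, as mean ± SD over 5 libraries for monocytes, 10 for macrophages, 5 for dendritic cells, 8 for T cells and 10 for microglia. They mix conditions and are described with no test, because the cell types were drawn from the same cells' genes. Slc7a11 was at 61.7 ± 36.5 in macrophages, 39.6 ± 24.3 in monocytes, 13.6 ± 18.6 in dendritic cells, 3.92 ± 3.29 in microglia and 0.104 ± 0.295 in T cells. Hmox1 was at 168 ± 113 in macrophages, 112 ± 34.6 in monocytes and 75.9 ± 32.5 in microglia, and at 9.97 ± 10.7 in T cells and 6.37 ± 3.17 in dendritic cells. Macrophages thus came first for both genes, with a range that overlapped that of monocytes. Gsr had the reverse order of these types, with 213 ± 76.2 in monocytes and 81.6 ± 57.8 in macrophages, then 60.1 ± 23.4 in T cells, 45.7 ± 27.7 in dendritic cells and 23.2 ± 4.69 in microglia. In each of the 5 infiltrating libraries Gsr was higher in monocytes than in macrophages. Sod2 was at 488 ± 289.6 in macrophages and 444 ± 194 in monocytes, whose ranges overlapped, and at 123 ± 34.8 in dendritic cells, 102 ± 23.3 in T cells and 84.9 ± 27.1 in microglia.

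Txn1 was at 649.9 ± 328 in monocytes, 580.5 ± 287 in macrophages, 421 ± 139 in T cells, 381 ± 213 in dendritic cells and 199.6 ± 190.1 in microglia. Within infiltrating libraries Txn1 had 258, 239.7 and 189 CPM in chronic against 550.3 and 666 CPM in peak dendritic cells, and 386, 273 and 431 CPM in chronic against 534 and 708 CPM in peak T cells. In both types, as in monocytes and macrophages, the chronic infiltrating libraries all lay below the peak ones. Prdx1 was at 1596 ± 788 in macrophages, 1274 ± 566 in monocytes, 730.0 ± 441 in microglia, 729.8 ± 236 in dendritic cells and 609 ± 233 in T cells, and these ranges overlapped throughout. Sod1 had its lowest means in macrophages and monocytes, with T cells at 40.6 ± 20.7, microglia at 35.9 ± 18.3, dendritic cells at 31.6 ± 16.2, macrophages at 27.0 ± 12.9 and monocytes at 22.0 ± 6.79. Srxn1, from few UMIs, was at 10.5 ± 6.34 in macrophages, 9.52 ± 5.28 in monocytes, 5.99 ± 4.35 in microglia, 2.61 ± 3.77 in T cells and 1.09 ± 1.85 in dendritic cells. The means of Txnrd1 lay between 26.2 in microglia and 47.3 in macrophages, and those of Gclm between 26.0 in dendritic cells and 52.9 in macrophages.

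Some cells of one type were sorted through the gate of the other, so type and gate could be read apart. In the 74 microglia of chronic infiltrating library c, Txn1 was at 187 CPM, and in the 1915 microglia of chronic infiltrating library b at 140 CPM, beside 141, 148 and 117 CPM in microglia of the chronic resident libraries; Txn1 in macrophages of the chronic infiltrating libraries was at 573, 472 and 466 CPM. Macrophages sorted through the resident gate, 20 to 68 cells a library, had 98.3, 68.3 and 19.0 CPM of Slc7a11 in chronic EAE and 28.6 and 10.6 CPM at the peak. Microglia from those same libraries had 2.52, 7.55 and 3.51 CPM in chronic EAE and 5.24 and 1.11 CPM at the peak. In each of these 5 libraries Slc7a11 was higher in macrophages than in microglia. Other members did not all follow this. By mean at the peak, Hmox1 was at 54.3 CPM in resident-gate macrophages and 92.1 CPM in microglia of those libraries. Sod1 was at 45.0 and 67.1 CPM. Srxn1 was at 1.77 and 4.36 CPM, but its macrophage value rests on 1 UMI in 50 cells, too few to place it. Txn1 (581 and 535 CPM) and Prdx1 (590 and 567 CPM) lay close, while Sod2, Txnrd1 and Gsr were higher in macrophages. Gclm was higher in macrophages by mean only. It had 21.3 to 44.5 CPM there, from 20 UMIs, and 23.6 to 30.6 CPM in microglia.

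**Figure D4:**
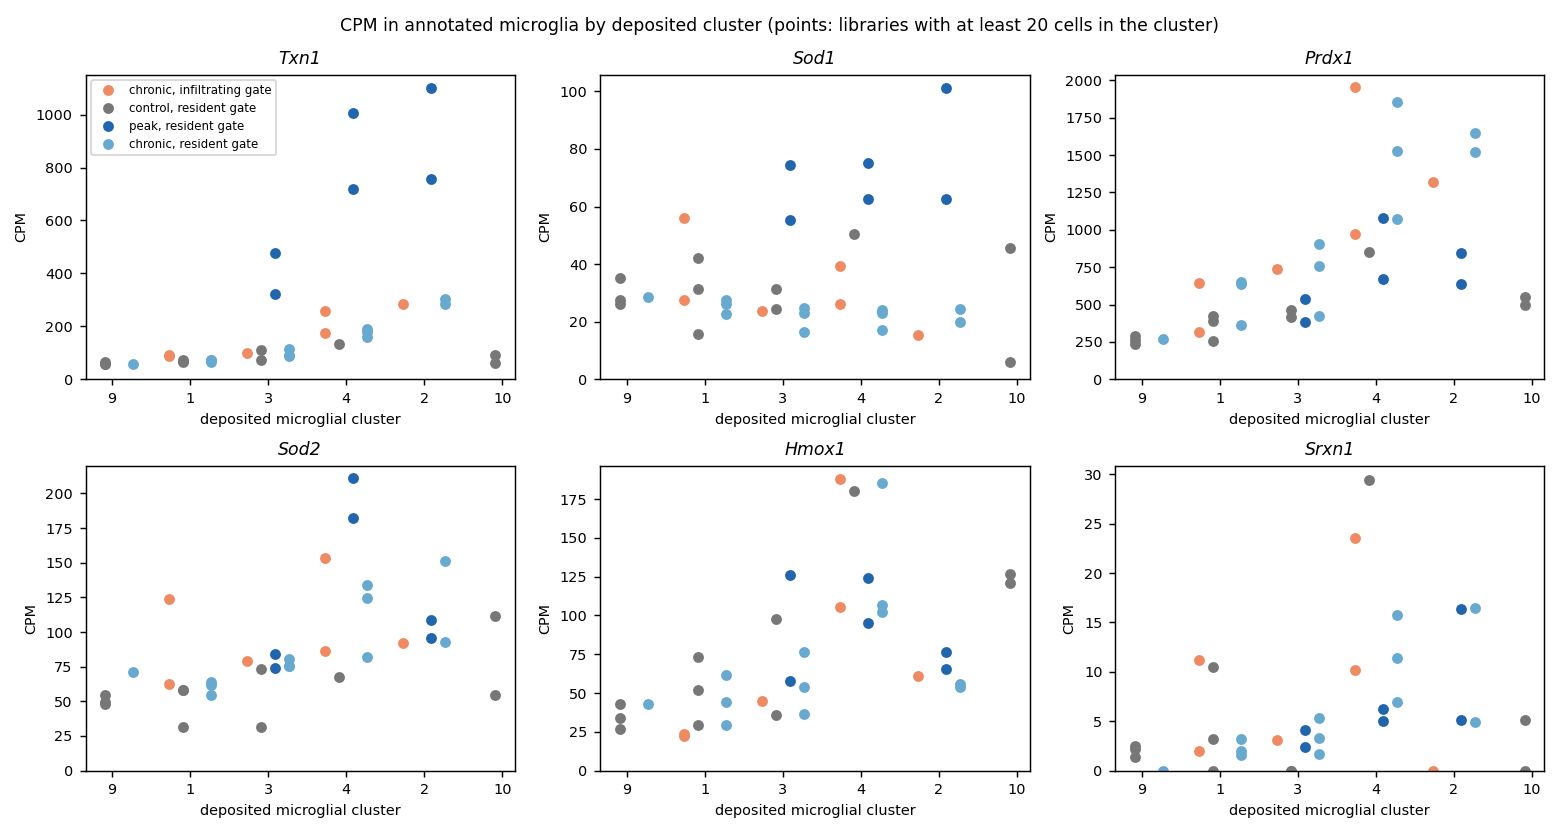
CPM of 6 genes in annotated microglia by the authors' cluster, scaled to library size alone; each point is a library with at least 20 cells in the cluster. Txn1 and Sod1 lie higher in the peak libraries than in the chronic libraries within clusters 2, 3 and 4.

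The authors' clusters of microglia were filled unequally by stage, with cluster 9 almost wholly from controls and clusters 1 and 4 mostly from chronic EAE, so the stages were compared inside clusters as a description. In cluster 3, which had at least 20 cells in libraries of all 3 stages, Txn1 was at 112 and 73.5 CPM in controls, 323 and 477 CPM at the peak and 114, 89.9 and 87.8 CPM in chronic EAE. In cluster 4 it was at 134 CPM in 1 control library, 720.5 and 1005 CPM at the peak and 158, 190.2 and 180.0 CPM in chronic EAE. The peak libraries stood apart in both clusters, while controls and chronic EAE lay nearer to each other. Cluster 1 had no peak library with at least 20 cells. Txn1 there was at 68.6 ± 4.52 CPM in controls and 69.6 ± 3.35 CPM in chronic EAE (mean ± SD, n = 3 each). Cluster 2 had no control library of that size, and Txn1 there was at 304 and 283 CPM in chronic EAE, against 757 and 1099 CPM at the peak. Sod1 likewise stood apart at the peak in cluster 3. It had 31.4 and 24.5 CPM in controls, 74.4 and 55.2 CPM at the peak and 16.4, 23.0 and 24.8 CPM in chronic EAE. In cluster 4 Sod1 had 50.4 CPM in 1 control library, from 12 UMIs. The peak libraries there had 62.5 and 75.2 CPM, and chronic EAE had 17.2 to 24.1 CPM.

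Prdx1 was lowest in cluster 9 and highest in clusters 2 and 4. It was at 1247 ± 474 CPM in cluster 4, 1193 ± 435 in cluster 2, 578 ± 196 in cluster 3, 460.3 ± 159.6 in cluster 1 and 264 ± 19.9 in cluster 9 (mean ± SD over 8, 5, 8, 8 and 4 libraries). In cluster 3 Prdx1 had 413 and 466 CPM in controls, 385 and 535 CPM at the peak and 905, 758 and 423 CPM in chronic EAE, and these overlapped. Hmox1 was at 136 ± 41.3 CPM in cluster 4, against 36.7 ± 7.70 in cluster 9 and 42.0 ± 19.0 in cluster 1. Cluster 10 had 124 ± 4.01 over 2 control libraries, from 46 and 33 cells. In cluster 4 the 1 control library with enough cells had 181 CPM of Hmox1 from 40 cells, beside 95.3 and 124 CPM at the peak and 107, 102 and 186 CPM in chronic EAE. Within cluster 1 Hmox1 was at 51.5 ± 22.2 CPM in controls and 45.1 ± 16.3 CPM in chronic EAE (n = 3 each). Prdx1 there was at 357 ± 86.1 CPM in controls and 551 ± 161 CPM in chronic EAE, with overlapping ranges. The clusters were made from the same cells' genes, so differences between clusters carry no test.

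Over the 13 library sums, the genes whose log2 CPM followed each member most closely (Pearson's r, as a description; the libraries share 2 cell groups, which any gene that differs between them follows) were Chd4 for Sod1 (r = 0.94), Abracl for Sod2 (0.99), Atp5e for Prdx1 (0.99), Bst1 for Txn1 (0.99), Tpt1 for Txnrd1 (0.97), Pirb for Gsr (0.99), Galnt6 for Srxn1 (0.99), Clec4e for Slc7a11 (0.97), Hspa8 for Hmox1 (0.98) and Pdcd10 for Gclm (0.97). The next after these were Nup205 and Pgap1 for Sod1, Anpep and Prdx5 for Sod2, Atp5mpl and Cox6c for Prdx1, Sema4a and AB124611 for Txn1, and Tnip1 and Ptgfrn for Txnrd1. For the others they were Cyb5r4 and Ocel1 for Gsr, Dram1 and Sash1 for Srxn1, Cdc42ep2 and Pira2 for Slc7a11, Micos13 and Hspa4 for Hmox1, and Ift172 and Aldh3b1 for Gclm. Among these genes Hspa8 and Hspa4 encode heat shock chaperones, and Atp5e, Atp5mpl and Cox6c encode subunits of the mitochondrial ATP synthase and cytochrome c oxidase.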

How the data were processed

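Single-cell RNA was measured in 13 libraries of sorted spinal cord myeloid cells. The deposited matrix holds raw UMI counts per gene and cell; Cell Ranger 3.1.0, R 4.1.3 and the build GRCm38 are named in the submitters' processing notes, while gene annotation and cell filters are not given in the sources used here. The deposited cell table, by the authors, gives each cell's log10 total UMI count, which matched the matrix, and its mitochondrial percent, at most 5.0. It also gives each cell's library, batch label headed SLX, sort gate, condition, cell type and cluster. No cell is marked as a doublet in it, no mitochondrially encoded gene is among the features, and any earlier removal of doublets is not described in the labels. The table names each library's condition and gate but not its replicate number, so libraries were placed in groups and not matched to numbered samples.

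UMI counts were summed per library over the annotated class and fitted with edgeR 4.0.16 in R 4.3.3: 5 group means over 13 libraries, TMM scaling, filterByExpr with a minimum count of 10, the quasi-likelihood test, and Benjamini-Hochberg adjustment over 11479 genes, with calls at 0.05. The coefficient of biological variation was 26.0% and 8 residual degrees of freedom remained. The ± of a log2 fold change is its standard error, the fold change over the square root of F, and its 95% interval uses those degrees of freedom. The edgeR test adds prior degrees of freedom to these, so the printed intervals are wider than the test's own. An interval that spans 0 can thus go with an unadjusted p under 0.05. The steps were tested on simulated data for peak over control microglia, where small changes were recovered less often than large ones and the share of false calls was above the nominal rate with edgeR and more so with DESeq2. Alternatives were DESeq2 1.42.0, scaling by library size only, no filter, pool as a term, all cells of each library, macrophages or monocytes alone, and each library left out. Levels by cell type and cluster are CPM of sums over at least 20 cells, with 50 as the alternative; the 38 cells annotated as central nervous system associated macrophages and 14 neutrophils gave no sum of that size.

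The members and gene lists were chosen with earlier results of these data known. All 10 members are named in the comparisons. From the wider list, up to 4 higher and 4 lower called genes with the smallest p are named per comparison, and for each member the 3 genes with the highest Pearson correlation of log2(CPM + 1), at an average log2 CPM of at least 3. Promoter windows came from RefSeq (GRCm38.p6); Gsr and Hmox1 had none. Gene positions came from GENCODE M21.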

Additional observations from a re-analysis of the deposited data

How the results depend on the processing

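Over all comparisons, the number of members called moved by more than 1.5 times in 16 alternative fits and did not in 68. A change from or to 0 was taken as a move. For peak over control microglia (7 called) it was 4 with library size only, 3 with all cells of each library and 3 to 4 with a library left out. For chronic over control microglia (5) it was 2 with pool as a term. For chronic over peak microglia (2) it was 0 with pool as a term and 0 to 3 with a library left out. For chronic over peak infiltrating cells (0) it was 2 with DESeq2. For infiltrating cells over microglia it was 5 at the peak (9) with all cells and 4 to 8 with a library left out, and in chronic EAE (9) it was 0 with all cells and 4 with monocytes alone. With all cells, 1821 of 11787 genes were called in peak over control microglia, against 2525 of 11479 with the annotated class. For infiltrating cells over microglia 2220 genes were called at the peak, against 3434, and 188 in chronic EAE, against 2991. So few genes of any kind were called in that chronic fit. The numbers of all genes called with a library left out are not given here. All cells of the chronic infiltrating libraries include the microglia in them. A group of 2 libraries left with 1 is assumed to vary like the others. The cause of the moves in these counts was not tested. No paired analysis was possible because the deposited cell table gives no replicate numbers for the libraries. The pool label was fitted as a term instead. Library size alone moved the median log2 fold change of all genes to -0.32 in peak and -0.49 in chronic over control microglia, -0.12 in chronic over peak microglia, -0.11 in chronic over peak infiltrating cells, and -0.36 at the peak and -0.33 in chronic EAE for infiltrating cells over microglia. With pool as a term, 78.5% of the genes called in chronic over control microglia were higher.

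The sign of a log2 fold change turned only for members not called in that comparison. In peak over control microglia, pool as a term gave -0.36 for Slc7a11 and 0.39 for Gclm. In chronic over control microglia, library size only gave -0.39 for Sod1, -0.33 for Txnrd1 and -0.35 for Gclm, and pool as a term -0.43 for Gclm. In chronic over peak microglia, library size only gave -0.15 for Sod2 and -0.057 for Hmox1, pool as a term -1.27 for Sod2, -0.20 for Prdx1, -0.79 for Hmox1 and -0.82 for Gclm, and all cells 0.14 for Gsr. For Slc7a11 in chronic over peak infiltrating cells, library size only gave -0.11, no filter -0.0048, all cells -0.35, macrophages alone -0.28 and monocytes alone -0.23. DESeq2 gave 0.013 for Sod1 in infiltrating cells over microglia in chronic EAE. For the difference of differences, all cells gave -0.19 and monocytes alone -0.030 for Prdx1, pool as a term 0.10 for Gsr and 0.084 for Hmox1, and monocytes alone 0.012 for Gsr.

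With a library left out, the log2 fold change of peak over control microglia ran from -0.84 to 1.23 for Slc7a11 and -0.39 to 0.20 for Gclm, and that of chronic over control microglia from -0.087 to 0.23 for Txnrd1 and -0.022 to 0.29 for Gclm. Chronic over peak microglia ran from -0.25 to 0.32 for Sod2, -0.30 to 0.13 for Gsr, -0.41 to 0.73 for Hmox1 and -0.077 to 0.51 for Gclm. Chronic over peak infiltrating cells ran from -1.26 to 0.46 for Gsr, -0.24 to 0.40 for Slc7a11, -0.93 to 0.31 for Hmox1 and -0.53 to 0.25 for Gclm, and Sod1 in infiltrating cells over microglia in chronic EAE from -0.17 to 0.13. The difference of differences ran from -0.30 to 0.55 for Prdx1, -0.47 to 0.38 for Txnrd1, -1.15 to 0.57 for Gsr, -2.02 to 0.015 for Slc7a11, -1.17 to 0.26 for Hmox1 and -0.71 to 0.076 for Gclm. Libraries were left out for the members alone, not for the wider list. Slc7a11 and Srxn1 rest on few UMIs in microglia, which limits what could be detected there.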
